A study of Homo sapiens with 6 samples.

Results

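The nucleosome remodelling and deacetylase complex, NuRD, was followed here through the transcripts of 10 of its subunits: CHD3, CHD4, MTA1, MTA2, MTA3, MBD2, MBD3, GATAD2A, GATAD2B and RBBP7. These are the NuRD subunits other than the histone deacetylases HDAC1 and HDAC2, taken by symbol from a table of 23368 genes. All 10 were in the table and all 10 passed the filter on low counts, which left 13322 genes tested. The lowest count of any of them in any library was 777.

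RNA-seq had been made from MDA-MB231 cells, an established human line of triple-negative breast cancer. The 6 libraries form 3 groups of 2. One group received a control siRNA (siControl), and the others received siL1 or siL2, different siRNAs directed at LSD1, a demethylase of histone H3 whose gene is KDM1A. All cells were grown in DMEM with fetal calf serum and transfected with a lipid reagent. The time of harvest is not given in the sources used here, and no label says that the replicates were separate cultures, so a p-value speaks only of the variation among these libraries, which may be technical.

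NuRD combines ATP-dependent nucleosome remodelling with histone deacetylation. CHD3 or CHD4 supplies the remodelling motor, HDAC1 or HDAC2 the deacetylase, an MTA protein the scaffold that binds the deacetylase, and RBBP4 and RBBP7 the histone-binding chaperones. An MBD protein, MBD2 or MBD3 but not both in 1 complex, is linked to the motor by GATAD2A or GATAD2B, and MBD2 binds methylated CpG DNA while mammalian MBD3 does so poorly. LSD1 has been described both as a member of the CoREST complex and as a partner of NuRD in breast cancer cells.

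Library totals ran from 22047738 to 26765079 counts, and 15624 to 16065 genes had a count. KDM1A stood at 158 and 165 CPM (CPM is the count scaled to a common library total) with siControl, 27.7 and 28.1 with siL1, and 17.4 and 18.1 with siL2. All 10 markers fixed for this mesenchymal basal line were expressed, summing to 8161 to 9027 CPM. They ranged from SPARC at 5.44 to 15.9 CPM and LOX at 14.0 to 25.4 up to VIM at 3291 to 3707. Of the 10, 3 were higher and 5 lower with siL1, and 3 higher and 2 lower with siL2. Over all genes tested 24.7% were higher and 25.7% lower with siL1, and 22.6% and 23.3% with siL2. The 10-gene luminal list summed to 520 to 528 CPM with siControl, 521 to 538 with siL1 and 408 to 424 with siL2. Of its 6 tested genes, 2 were higher and 1 lower with siL1, and 1 higher and 3 lower with siL2. In this list the keratins KRT8 and KRT18 stood at 203 to 261 and 188 to 268 CPM. EPCAM stood at 9.34 to 12.6, FOXA1 at 2.19 to 5.53, GATA3 at 2.54 to 5.40 and ERBB3 at 1.74 to 3.87. ESR1, PGR, CDH1 and KRT19 each stood below 0.2 CPM in every library. The 15 blood cell markers summed to 0.82 to 1.46 CPM. The 14 fibroblast and endothelial markers summed to 9.86 to 11.6 CPM with siControl, 25.8 to 27.3 with siL1 and 16.4 to 18.3 with siL2. Of 6 genes of that list that could be tested, 4 were higher with siL1 and 3 with siL2, beside 24.7% and 22.6% of all genes tested. PDGFRB stood at 0.83 CPM with siControl, 7.19 with siL1 and 3.73 with siL2, and COL1A1 at 5.91, 12.2 and 8.71 (group means). KDR was also higher with both siRNAs (log2 fold change 1.31 and 0.64). PECAM1 was higher with siL1 only, at 0.723 CPM or less in every library. ACTA2 and CDH5 passed with neither, and DCN, LUM and COL1A2 were listed at 0 in all libraries. The part of these markers in the NuRD values was not tested.

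In control cells the subunit transcripts covered a wide range once divided by exon length (CPM per kb of exon, a level, with the exons of GENCODE's basic set of transcripts). RBBP7 was highest, at 118 and 119 CPM per kb in the 2 control libraries. CHD4 followed at 52.7 and 48.1, MTA2 at 47.0 and 49.4, GATAD2A at 45.1 and 46.5, CHD3 at 45.0 and 43.5, and MTA1 at 44.5 and 42.3. CHD4 and MTA2 overlapped between libraries, as did CHD3 and MTA1, so the order within each of these pairs is not resolved, and the gaps from GATAD2A to MTA2 and to CHD3 were about the size of the spread between libraries. MBD3 (20.9 and 21.4) lay above MBD2 (15.9 ± 0.159, SD, n = 2), and GATAD2B (6.62 ± 0.545, SD, n = 2) above MTA3 (5.30 and 4.89). These levels depend on the exons counted, and the annotation behind the counts is not given in the sources used here. With every annotated transcript, a choice made after seeing the data, the exon length was 2.71 times as long for RBBP7, 2.41 times for MTA1 and 1.87 times for CHD4. RBBP7 then stood at 43.7 and 44.0 CPM per kb, GATAD2A at 38.5 and 39.8, MTA2 at 37.8 and 39.7, CHD3 at 35.3 and 34.2, CHD4 at 28.2 and 25.7, and MTA1 at 18.5 and 17.6. The distance of RBBP7 from the others and the order of the next 4 therefore rest on the exon length used. Under both lengths GATAD2B lay below GATAD2A, MTA3 below MTA1 and MTA2, and MBD2 below MBD3, which were close with every transcript (15.3 and 15.5 against 16.3 and 16.6). Of MBD3's 50-base stretches 9.16% are shared with other genes, chiefly AC005943.1, a gene model over the same locus, so its level is uncertain. For CHD4 the share is 43.5%, so its level and its place in the order are uncertain too. The motor paralog CHD5, mostly known from neurons, stood at 0.318 and 0.847 CPM.

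**Figure D1:**
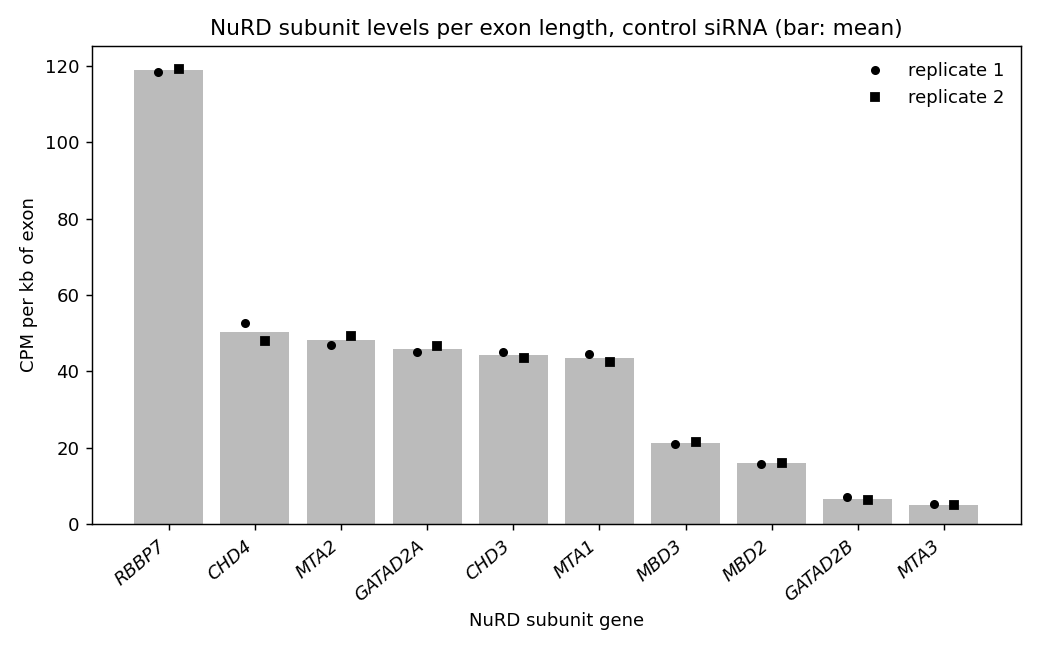
Level of each NuRD subunit transcript in the control siRNA group, in CPM per kb of exon in the basic set of transcripts, with bars for the mean of 2 libraries and points for each library. RBBP7 reaches 119, 5 subunits lie between 42.3 and 52.7, and MTA3 and GATAD2B are the lowest; with every annotated transcript RBBP7 stands at 43.7 and 44.0.

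With siL1, 5 of the 10 subunit transcripts were lower than in the control and 0 were higher. MBD2 fell by 53.0%, GATAD2A fell by 34.4%, and CHD4, MTA1 and RBBP7 each fell by under 10%. With siL2, 3 were lower (GATAD2A, MTA1 and MBD3) and 1 was higher (CHD3). Over all 13322 genes 50.4% passed the same threshold with siL1 (24.7% higher, 25.7% lower) and 45.8% with siL2 (22.6% higher, 23.3% lower), so counts of 5 and 4 of 10 are close to the background and do not set the complex apart. A change of at least 1.5-fold past the threshold was made by 12.9% of all genes with siL1 and by 10.7% with siL2, and among the subunits by 2 (MBD2 and GATAD2A) and 0. The median log2 fold change of the 10 was -0.08 with siL1 and -0.03 with siL2, beside -0.01 and 0.00 over all genes tested. Both comparisons use the same 2 control libraries.

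**Figure D2:**
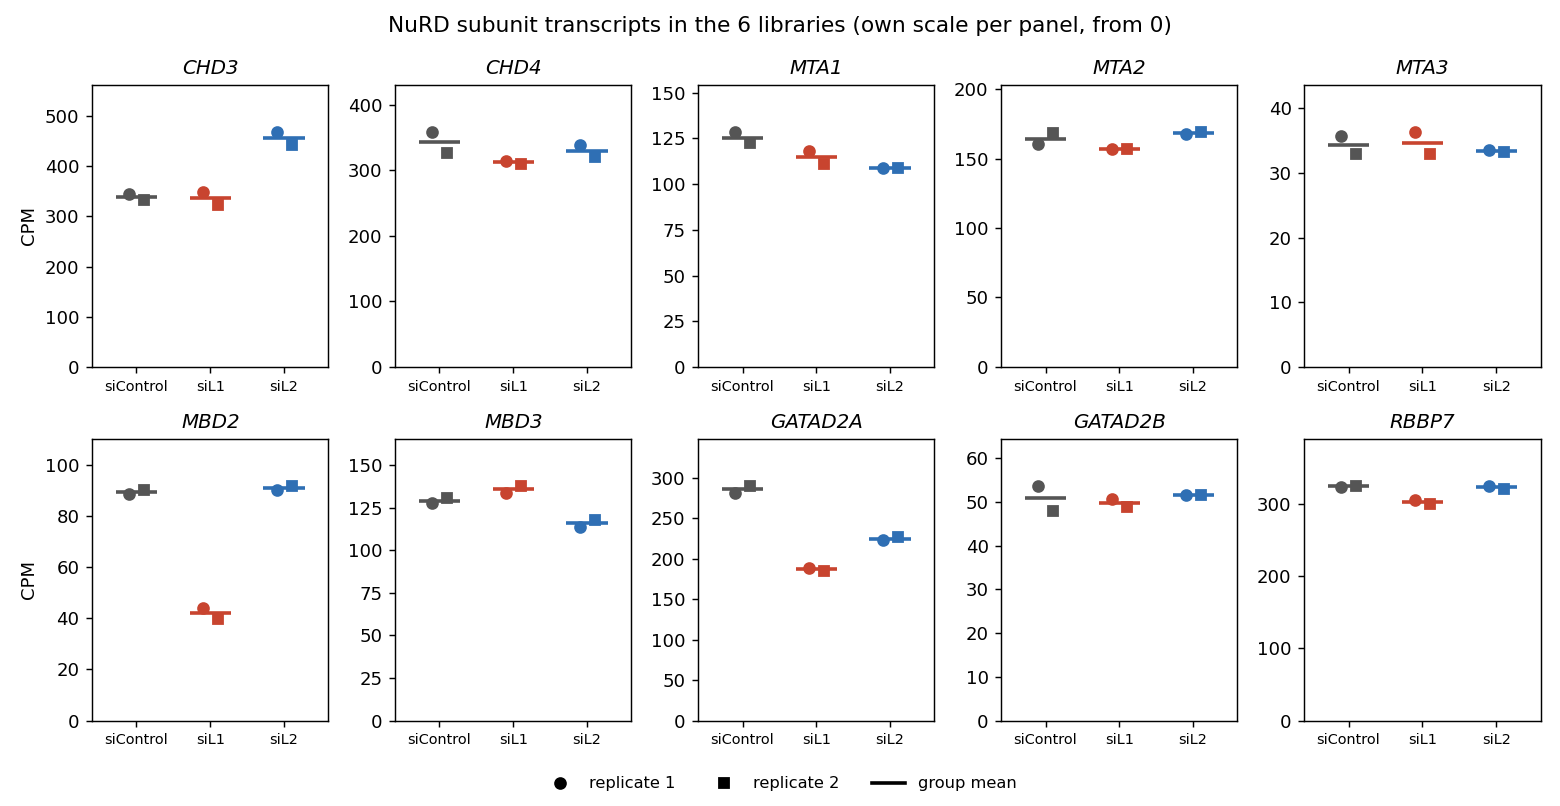
CPM of the 10 subunit transcripts in each of the 6 libraries, each panel on its own linear scale from 0, with a line at the group mean. MBD2 is at 44.2 and 39.8 CPM with siL1 and at 88.9 to 92.1 in the other 4 libraries, GATAD2A is lower in all 4 LSD1 siRNA libraries, and CHD3 is higher only in the siL2 pair.

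The methyl-CpG-binding subunit MBD2 made the largest change of the complex. It stood at 88.9 and 90.1 CPM with siControl, at 44.2 and 39.8 with siL1, and at 90.5 and 92.1 with siL2. Both siL1 libraries were far below the other 4, which lay between 88.9 and 92.1. The log2 fold change with siL1 was -1.09 (SE 0.0558, adjusted p = 1.21e-08), the 87th lowest of 13322 genes. With siL2 it was 0.02 (95% interval -0.09 to 0.14, adjusted p = 0.731), and siL2 differed from siL1 by 1.11 (adjusted p = 1.4e-08). A drop of the size seen with siL1 therefore lies outside the siL2 interval.

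MBD3, the alternative MBD subunit, went the other way between the siRNAs. Its levels were 128 and 130.5 CPM with siControl, 133 and 138 with siL1, and 114 and 118 with siL2. The groups did not overlap, with siL1 highest and siL2 lowest. MBD3 fell by 0.16 on the log2 scale with siL2 (SE 0.0438, adjusted p = 0.00884), had a log2 fold change of 0.08 with siL1 (95% interval -0.02 to 0.17, adjusted p = 0.161), and differed between the siRNAs (siL2 minus siL1 -0.24, adjusted p = 0.000636). The call with siL2 ended without siControl replicate 2 (adjusted p = 0.0528) or siL2 replicate 1 (adjusted p = 0.084). In CPM summed over both MBD genes, the libraries held 217 and 221 with siControl, 178 and 178 with siL1, and 204 and 209.8 with siL2.

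Stretches of the 3' UTR, the part of an mRNA after the stop codon, are shown for MBD2, MBD3 and GATAD2B because these 3 of the 10 subunits carry ACAGAGC there, a heptamer that a search of these same libraries had picked in genes lower with siL1. It was taken up with that result known, and it supports nothing here. Each 29-base stretch is on GRCh38 in GENCODE 29, 5′ to 3′ on the coding strand, with the heptamer in capitals. MBD2 lies on the minus strand at chr18:54154117-54154145, MBD3 on the minus strand at chr19:1577619-1577647 and GATAD2B on the minus strand at chr1:153805400-153805428.
MBD2: aattttgagagACAGAGCaaaagtaaaat
MBD3: ctggtggtgccACAGAGCctcaccgtgcc
GATAD2B: cacagccaaccACAGAGCccttaagggtg
Each of the 3 UTRs held the heptamer once, at base 1190 of 3723 in MBD2, 528 of 4568 in MBD3 and 4760 of 5452 in GATAD2B. Of these, only MBD2 passed the test with siL1. The heptamer was in 17.8% of the 11369 tested genes with a 3' UTR of at least 50 bases, and in 34.6% of the 1943 whose 3' UTR had 3000 to 6000 bases, the class of all 3. The median log2 fold change with siL1 was -0.03 in genes with it and 0.00 in genes without it. GATAD2A, which also fell with siL1, held none in 3457 bases. The match is of letters on the coding strand only, and the siRNA sequences were not used here.

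A different heptamer, TACATTT, chosen in the same way from genes higher with either siRNA, was in the 3' UTR of MBD2 and MTA3. They were the only 2 of the 10 subunits with it, and neither was higher with either siRNA. In the rest of NuRD it was in HDAC1 (higher with both siRNAs) and HDAC2 (lower with both). CDK2AP1, higher with siL1 and lower with siL2, also held it. The median log2 fold change in genes with and without it was 0.06 and -0.02 with siL1, and the same with siL2. Since it was picked from these same libraries, it supports nothing here either. The MBD2 stretch lies on the minus strand at chr18:54153992-54154020 and the MTA3 stretch on the plus strand at chr2:42753482-42753510, both GRCh38.
MBD2: agtgtcacctgTACATTTtattaccacta
MTA3: cccactcccagTACATTTcagtgggagac
Of the 11369 genes 26.9% held TACATTT, and of the 1943 with a 3' UTR of 3000 to 6000 bases, the class of MBD2 and MTA3, 51.8% did. TACATTT shares 6 letters with ACATTTA, found in 22.2% of genes and in 0 of the 10 subunits. GTTACAA, picked in genes lower with siL2, was in 9.46% of genes and also in 0 of the 10. GATAD2A, MTA1, CHD3, CHD4, MTA2 and RBBP7 held none of the 4 heptamers.

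GATAD2A and GATAD2B encode the p66 proteins that bridge the MBD subunit to the motor. GATAD2A stood at 281 and 290.3 CPM with siControl, 189 and 185 with siL1, and 223 and 227 with siL2. All 4 LSD1 siRNA libraries were below both controls, and the siL1 pair was lowest. The log2 fold change of GATAD2A was -0.61 with siL1 (SE 0.0375, adjusted p = 6.04e-08) and -0.35 with siL2 (SE 0.0371, adjusted p = 7.68e-06). The fall was smaller with siL2 (log2 difference siL2 minus siL1 0.26, adjusted p = 0.000112). KDM1A differed the other way (log2 difference -0.66, adjusted p = 4.36e-06). GATAD2B stood at 53.7 and 47.8 CPM with siControl, 50.6 and 48.8 with siL1, and 51.5 and 51.5 with siL2. The 3 groups of GATAD2B lay within the spread of the controls. Its log2 fold changes were -0.02 with siL1 (95% interval -0.16 to 0.11, adjusted p = 0.776) and 0.02 with siL2 (95% interval -0.12 to 0.16, adjusted p = 0.835). The summed CPM of both genes was 335 and 338 with siControl, 239 and 234 with siL1, and 275 and 278 with siL2.

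Of the remodelling motors, CHD3 rose with siL2. It stood at 345 and 333 CPM with siControl, 349 and 323 with siL1, and 468 and 442 with siL2. The siL1 libraries bracketed the controls, and both siL2 libraries were above all others. The log2 fold change was 0.42 with siL2 (SE 0.0427, adjusted p = 5.39e-06) and -0.01 with siL1 (95% interval -0.10 to 0.08, adjusted p = 0.887), and the difference between siL2 and siL1 was 0.43 (adjusted p = 4.91e-06). CHD4, the motor most often found in NuRD, stood at 359 and 327 CPM with siControl, 315 and 309.9 with siL1, and 339 and 321 with siL2. The control libraries spanned the siL2 value of 339, and both siL1 libraries were just below the lower control. The log2 fold change of CHD4 was -0.13 with siL1 (SE 0.0458, adjusted p = 0.0319) and -0.06 with siL2 (95% interval -0.16 to 0.04, adjusted p = 0.322). Its call with siL1 ended without siControl replicate 1 (adjusted p = 0.31) or without either siL1 library. Of CHD4's 50-base stretches in GENCODE 29, 43.5% are shared with other genes, chiefly AC006064.6, a gene model annotated over the same locus.

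The MTA scaffolds changed little. MTA1 stood at 129 and 122 CPM with siControl, 118 and 111 with siL1, and 109 and 109 with siL2. Both siRNA pairs were below the lower control. MTA1 fell by 0.21 on the log2 scale with siL2 (SE 0.046, adjusted p = 0.00232) and by 0.12 with siL1 (SE 0.046, adjusted p = 0.0379), where the call ended without siControl replicate 1 (adjusted p = 0.218) or siL1 replicate 2 (adjusted p = 0.232). The siRNAs were not shown to differ for MTA1 (log2 difference -0.09, 95% interval -0.19 to 0.01, adjusted p = 0.15). MTA2 stood at 160.2 and 168 CPM with siControl, 157 and 157 with siL1, and 168 and 169 with siL2. MTA3, the scaffold described as a repressor of SNAI1, stood at 35.6 and 32.9 CPM with siControl, 36.3 and 33.0 with siL1, and 33.6 and 33.2 with siL2. For MTA2 both siL1 libraries were below both controls, and for MTA3 the groups overlapped. Neither gene passed the test with either siRNA, with 95% intervals within -0.15 to 0.12 for MTA2 and -0.19 to 0.17 for MTA3.

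RBBP7, a histone-binding chaperone, stood at 323 and 325 CPM with siControl, 305 and 299.9 with siL1, and 324 and 321 with siL2. With siL1 it fell by 6.35%, a log2 fold change of -0.09 (SE 0.0343, adjusted p = 0.0348), and it had a log2 fold change of -0.01 with siL2 (95% interval -0.08 to 0.06, adjusted p = 0.843). The siL1 call did not hold without any 1 of the 6 libraries (adjusted p from 0.0517 to 0.125). With upper quartile scaling or with DESeq2's test, MBD2 and GATAD2A were the only subunits past the threshold with siL1, beside 49.7% and 39.2% of all genes. In the authors' deposited table the same 2 had an adjusted p under 0.05 with siL1 (ratios to control of 0.472 and 0.659). The ones under it with siL2 were CHD3 (1.34), GATAD2A (0.785), MTA1 (0.864) and MBD3 (0.894). The share of all genes under 0.05 in the authors' values was not computed.

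**Figure D3:**
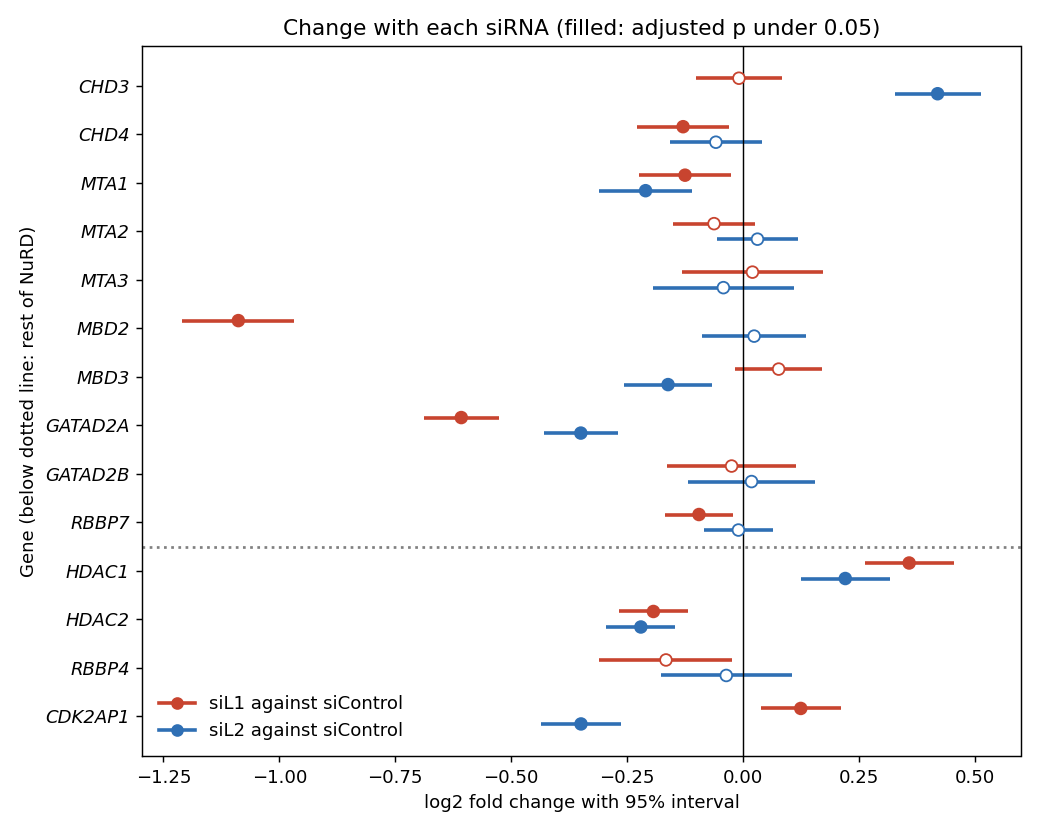
Log2 fold change of each subunit transcript against siControl (x axis) with siL1 in red and siL2 in blue, points filled where the adjusted p was under 0.05 and bars for the 95% interval. MBD2 (-1.09) and GATAD2A (-0.61) stand apart with siL1, and CHD3 (0.42) and GATAD2A (-0.35) with siL2; the 4 other NuRD genes are below the dotted line.

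Direct comparison of the siRNAs found 4 of the 10 subunits different, 3 higher with siL2 (MBD2, CHD3 and GATAD2A) and 1 lower (MBD3). Over all genes 46.8% differed (23.2% higher and 23.7% lower with siL2), and 11.5% did so by at least 1.5-fold, as MBD2 did. The median difference of the 10 was 0.08, beside 0.00 over all genes. The summed CPM of the 10 subunits was 1902 and 1867 with siControl, 1697 and 1646 with siL1, and 1920.3 and 1883 with siL2. This sum was below the controls in both siL1 libraries and overlapped them with siL2.

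Because several positions of the complex are filled by 1 of a set of paralogs, the ratio of paralog transcripts was taken within each library, where neither scaling nor gene length changes its difference between groups. The CPM ratio of MBD2 to MBD3 was 0.695 and 0.691 with siControl, 0.331 and 0.288 with siL1, and 0.795 and 0.782 with siL2. The ratio was lower with siL1 and higher with siL2 than in both controls. CHD3 to CHD4 was 0.962 and 1.02 with siControl, 1.11 and 1.04 with siL1, and 1.38 and 1.38 with siL2. GATAD2A to GATAD2B was 5.23 and 6.07 with siControl, 3.73 and 3.80 with siL1, and 4.33 and 4.40 with siL2. All 4 LSD1 siRNA libraries were below both controls, and the control libraries also differed from each other. MTA1 to MTA2 was 0.803 and 0.726 with siControl, 0.753 and 0.709 with siL1, where the groups overlapped, and 0.649 and 0.643 with siL2. On the log2 scale the MBD2 to MBD3 ratio changed by -1.17 with siL1 (SD 0.140 in siL1 and 0.0068 in siControl, n = 2 each) and the CHD3 to CHD4 ratio by 0.48 with siL2 (SD 0.0034 and 0.0599, n = 2 each). With 2 libraries against 2, the two-sided exact permutation test cannot go below p = 0.333, so none of the 14 ratio comparisons (7 pairs, 2 siRNAs) could pass, and the smallest adjusted p was 0.467.

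**Figure D4:**
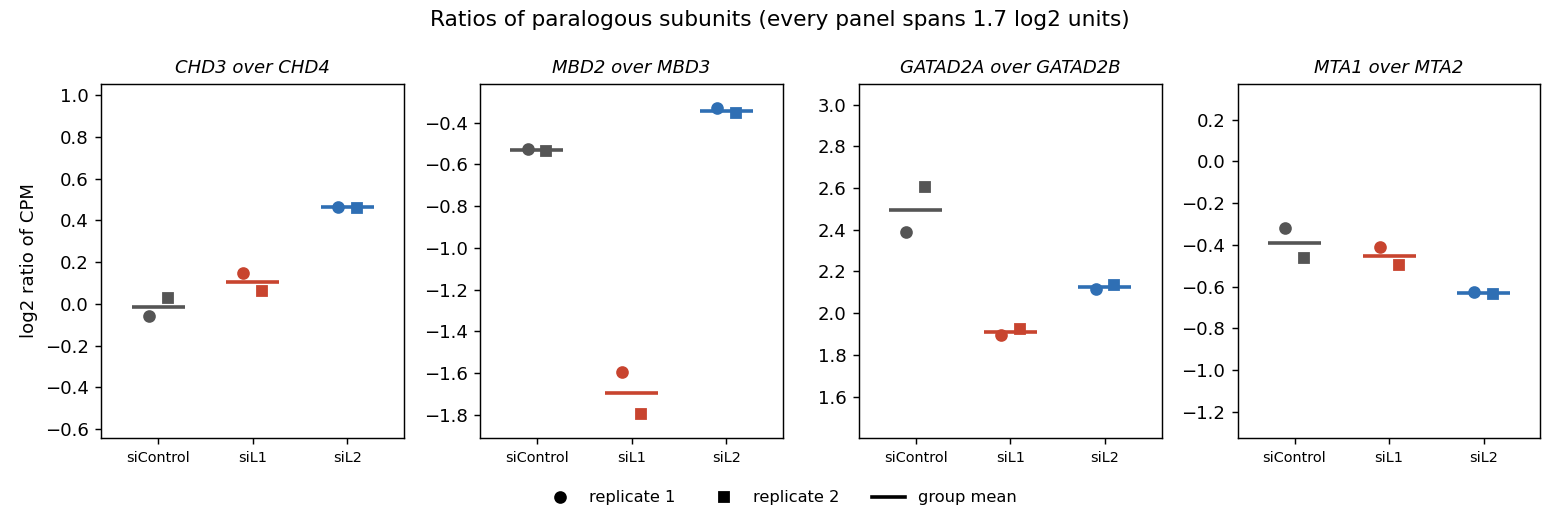
Log2 ratio of the CPM of paralogous subunits in each of the 6 libraries, with a line at the group mean and the same span in every panel. The MBD2 to MBD3 ratio is lowest in the siL1 pair and the CHD3 to CHD4 ratio is highest in the siL2 pair, while MTA1 to MTA2 overlaps between siControl and siL1.

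The rest of NuRD was described from a list of 4 genes. The deacetylase HDAC1 stood at 146 and 149 CPM with siControl, 183 and 194 with siL1, and 176 and 169 with siL2, with a log2 fold change of 0.36 after siL1 (SE 0.0443, adjusted p = 2.45e-05) and 0.22 after siL2 (adjusted p = 0.00124). Its paralog HDAC2 stood at 386 and 390.4 CPM with siControl, 336 and 341 with siL1, and 335 and 333 with siL2, and fell by 0.19 with siL1 (adjusted p = 0.000441) and by 0.22 with siL2 (adjusted p = 0.000182). The deacetylase paralogs thus moved in opposite directions with each siRNA. CDK2AP1, a small accessory subunit also called DOC-1, stood at 166 and 162 CPM with siControl, 179 and 178 with siL1, and 131 and 127 with siL2. It rose by 0.12 with siL1 (adjusted p = 0.0189), fell by 0.35 with siL2 (adjusted p = 1.55e-05), and differed between the siRNAs by -0.47 (adjusted p = 1.14e-06). Of its 50-base stretches 15.2% are shared with AC068768.1, a gene model over the same locus. The rise did not pass without siControl replicate 2 or without either siL1 library (adjusted p from 0.0646 to 0.124). RBBP4, the paralog of RBBP7, stood at 37.5 and 35.6 CPM with siControl, 33.3 and 31.7 with siL1, and 34.7 and 36.8 with siL2, and passed with neither (adjusted p = 0.0527 and 0.685). With the replicate number as a block it passed with siL1 (log2 fold change -0.17, adjusted p = 0.00983). Of its 50-base stretches 4.74% are shared with other genes, chiefly its pseudogenes, so its level is uncertain.

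CHD and MBD family genes that are not NuRD subunits, or only in other tissues, gave 2 higher and 3 lower of 13 with siL1, and 3 higher and 2 lower with siL2. Among all tested genes 24.7% were higher and 25.7% lower with siL1, and 22.6% and 23.3% with siL2. CHD7, a remodeller mutated in CHARGE syndrome, had a log2 fold change of -0.58 with siL1 (adjusted p = 4.68e-05) and had -0.03 with siL2 (adjusted p = 0.806). MBD6 fell by 0.41 with siL1 (adjusted p = 0.000144) and by 0.17 with siL2 (adjusted p = 0.0362). CHD2 rose by 0.28 (adjusted p = 0.000825) and CHD1 fell by 0.25 (adjusted p = 0.00286) with siL2. Of 16 proteins known to bring NuRD to its sites, 10 were tested, with 1 higher and 0 lower with siL1 and 2 higher and 2 lower with siL2. The zinc finger gene SALL2 rose from 1.82 ± 0.244 to 3.99 ± 0.486 CPM (SD, n = 2 each) with siL1, and the FOG family gene ZFPM2 fell from 4.19 ± 0.297 to 2.10 ± 0.0422 CPM (SD, n = 2 each) with siL2. PWWP2A, which links NuRD-type MTA and HDAC modules to chromatin, fell by 0.37 with siL2 (adjusted p = 0.000828) and had -0.01 with siL1 (adjusted p = 0.946).

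Other deacetylase and remodelling complexes are given for comparison. The background was 24.7% of all tested genes higher and 25.7% lower with siL1 (median log2 fold change -0.01). With siL2 it was 22.6% higher and 23.3% lower (median 0.00). The CoREST list, LSD1's other complex, had 3 higher and 2 lower of 8 tested with siL1 (median 0.02), and 1 higher and 2 lower with siL2 (median 0.01). The scaffold RCOR1 fell by 0.49 on the log2 scale after siL2 (adjusted p = 1.59e-06) and had 0.08 with siL1 (adjusted p = 0.153). The SIN3 list had 2 higher and 3 lower of 15 with siL1 (median -0.06), and 4 higher and 1 lower with siL2 (median -0.01). The SWI/SNF list had 1 higher and 14 lower of 20 with siL1 (median -0.24), and 3 higher and 8 lower with siL2 (median -0.11). The core subunit SMARCC1 fell by 0.42 and 0.26 there (adjusted p = 2.75e-06 and 0.000165). The ISWI and INO80 list had 1 higher and 8 lower of 21 with siL1 (median -0.06), and 6 higher and 7 lower with siL2 (median -0.04). No difference between these lists and NuRD was tested.

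Genes described as repressed or bound by NuRD in breast cells were read last. Of 8 listed, 5 were tested, with 2 higher and 1 lower with siL1 and 2 higher and 0 lower with siL2. The shares over all tested genes were 24.7% higher and 25.7% lower with siL1, and 22.6% and 23.3% with siL2. SNAI1, the EMT regulator described as an MTA3 target, stood at 4.22 and 3.94 CPM with siControl, 6.59 and 7.51 with siL1, and 5.90 and 6.21 with siL2. Its log2 fold change was 0.80 with siL1 (adjusted p = 0.000437) and 0.57 with siL2 (adjusted p = 0.00576), with all 4 LSD1 siRNA libraries above both controls. MTA3 passed with neither siRNA, and a link between these genes was not tested. TGFB1, described as repressed by LSD1 together with NuRD, stood at 82.7 and 81.7 CPM with siControl, 108 and 108 with siL1, and 92.8 and 86.7 with siL2. TGFB1 rose by 0.40 with siL1 (adjusted p = 1.85e-05) and had 0.12 with siL2 (adjusted p = 0.0512). BCAS3 was the gene lower with siL1 (log2 fold change -0.30, adjusted p = 0.0365), and its value with siL2 was 0.004 (adjusted p = 0.98). GNAI2 was the other gene higher with siL2 (0.17, adjusted p = 0.00447), beside 0.05 with siL1 (adjusted p = 0.313). BRCA1 passed with neither siRNA (adjusted p = 0.0611 and 0.121). ESR1, CDH1 and WNT4 were below 0.2 CPM in every library and were not tested.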

How the data were processed

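Per the submitters' processing notes, reads were aligned with TopHat 1.3.3 to hg19, counted per gene with HTSeq and compared with DESeq; strand setting and annotation release are not given in the sources used here. The authors deposited raw counts per gene symbol for 6 libraries, with their fold change as a linear ratio and their adjusted p-value for each siRNA, per the file headers. Of 23368 genes, 5745 had 0 counts throughout.

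Counts were tested with R 4.3.3 and edgeR 4.0.16: filterByExpr by group, TMM, glmQLFit with group over all 6 libraries (3 residual degrees of freedom, common biological coefficient of variation 3.72%), two-sided glmQLFTest, Benjamini-Hochberg over 13322 genes, threshold 0.05. Intervals are 95% from the SE of the log2 fold change. CPM used whole library totals, and CPM per kb the union of exons in the basic set of GENCODE 29 (GRCh38, joined by symbol; the counts were made on hg19). 3' UTRs were the longest per gene there. The 2 libraries of a group differed beyond sampling noise (chi-square per gene 3.11 to 3.30).

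The 10 members, the gene lists and the heptamers were chosen with earlier results of these data known. The text names all members, KDM1A, HDAC1, HDAC2, RBBP4, CDK2AP1 and CHD5. From every other list it names up to 2 genes with the smallest p in each siRNA comparison, not all of which are printed. The other named markers, and BCAS3, BRCA1, ESR1, CDH1 and WNT4, were named after their values were seen. The scripts were tested on simulated data. Alternatives used DESeq2 1.42.0 and limma 3.58.1; Python 3.11.15 served the rest.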

Additional observations from a re-analysis of the deposited data

Results flagged for a closer look

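The effects of siL1 and siL2 differed, by the test of siL2 against siL1, for 6 of the 14 NuRD genes. Among the subunits the log2 difference of siL2 minus siL1 was 1.11 for MBD2, 0.43 for CHD3, 0.26 for GATAD2A and -0.24 for MBD3. It was -0.47 for CDK2AP1 and -0.14 for HDAC1 (adjusted p = 0.0202). Over all genes 46.8% differed in this comparison. The difference for HDAC1 did not pass without siL1 replicate 2 (-0.09, adjusted p = 0.197) or siL2 replicate 2 (-0.11, adjusted p = 0.137). The groups hold 2 libraries each, too few to look for a single library apart from its group.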

How the results depend on the processing

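The tests of the 14 NuRD genes were recomputed under 14 alternatives. Paralog ratios were recomputed only without replicate 1 or replicate 2, and control levels only with 1 other exon length. List counts, marker sums and heptamer results were not recomputed. MBD2 and GATAD2A with siL1, and CHD3, GATAD2A and MTA1 with siL2, kept direction and call in all 14, as did MBD2, CHD3, GATAD2A and MBD3 for siL2 against siL1. The count of 5 subunits past the threshold with siL1 was 3 with DESeq2's size factors or with only the 2 groups fitted, beside 50.1% and 50.9% of all genes. It was 2 with upper quartile scaling or DESeq2's test, beside 49.7% and 39.2% of all genes. The main fit had 50.4%. CHD4, MTA1 and RBBP7 were the ones lost. Each was also lost in fits without 1 library, where a lone library is assumed to vary like the other groups. With siL2, MBD3 lost its call in such fits and CHD4 gained one. The median of all genes moved by under 0.1 with any scaling. The labels do not say that replicate numbers mark a shared day; same-numbered libraries deviated together (correlations 0.396 to 0.496 over 9404 genes), a hint from the data. With the replicate number as a block, the count for siL2 against siL1 was 8 instead of 4 (6 higher, 2 lower), adding CHD4, MTA1, MTA2 and RBBP7, while 57.8% of all genes passed in that comparison. Beyond the 10, the block added RBBP4 with siL1 (-0.17, adjusted p = 0.00983) and for siL2 against siL1 (0.13, adjusted p = 0.0436), and it changed no other NuRD call. No result reversed. Changes under about 10% are at the limit of 2 libraries per group.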
